A study of Saccharomyces cerevisiae with 8 samples.

Results

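The regions described here are the widest stretches of open chromatin that were called in budding yeast before hormone was added, each 1200 bp or more from end to end. They were chosen by their width alone: every distinct region on the 16 nuclear chromosomes that reached 1200 bp in either of the 2 peak lists of the 0 min time point was taken, with entries of identical coordinates counted once. This gave 650 regions of 7059 distinct regions at 0 min, and of 13627 in the 4 lists of the study. The list of strain code 8 held 317 of them among 3599 regions, which is 8.81% (exact Clopper-Pearson 95% interval 7.90 to 9.78%). The list of strain code 11 held 353 of 3699, which is 9.54% (8.62 to 10.5%). Overlapping wide regions of both codes were joined into 368 loci, of which 300 were wide in both codes, 16 in code 8 only and 52 in code 11 only.

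ATAC-seq, which marks DNA that nucleosomes leave free by insertion of a Tn5 transposon end, was applied to populations of haploid MATa Saccharomyces cerevisiae of the S288c background. Its 8 samples form 4 groups of 2 independent experiments. The CEN4 control strain has no lox site beside the centromere of chromosome IV, and the CEN4* strain carries lox sites on either side of it, which the Cre recombinase uses to remove the centromere and leave cen4-. Each strain was taken at 0 min without treatment and at 180 min with 1 µM beta-estradiol, so the hormone was given to the controls too and the 180 min groups differ from the 0 min groups in both time and hormone. No label says whether the codes 8 and 11 stand for CEN4 or CEN4*, so the strains are named by code. One list was used per code and time, and no label says whether it pools both experiments, so there are no replicates, no difference below was tested, and intervals cover counting error only.

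In yeast, the start of most active genes lies beside a short nucleosome-depleted stretch where transcription factors, general regulatory factors and chromatin remodellers keep nucleosomes away. Such a stretch is usually bounded on the gene side by a well-placed first nucleosome. Wider openings are known from promoters shared by a divergent gene pair, from strongly transcribed genes whose bodies lose nucleosomes, and from long regulatory regions upstream of highly regulated genes. A peak caller joins neighbouring summits when the signal between them does not return to background, so a wide region is a run of such summits.

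The wide regions were composite. In code 8 at 0 min they held a mean of 4.68 sub-peaks (SD 1.78, n = 317 regions, range 1 to 13), against a mean of 1.90 over all regions of the list. In code 11 the mean was 4.63 (SD 1.77, n = 353, range 1 to 13), against 1.92. The higher number goes with their length. Per kb, wide regions held fewer sub-peaks than the other regions, 2.88 against 3.43 in code 8 and 2.85 against 3.47 in code 11. Only 2 wide regions in each of these lists had a single summit. Wide regions made up 24.8% of all covered bases in code 8 and 26.7% in code 11. Their tallest summit reached a median of 7.59 times the genome-wide background pileup of the list in code 8, against 3.52 in the other regions, and 7.32 against 3.39 in code 11. Pileup is the number of stacked fragments at the summit, and since height helps a stretch to pass the caller's threshold, height and width are not independent.

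At the threshold the order of regions depended on single bases. In code 8 the narrowest members were those at TRR1 (1200 bp), at PTA1 and ERV46 (1202 bp) and at YPS3 (1202 bp), and the widest regions left out were those at SRG1 and SER3 (1199 bp), at PRY3 (1198 bp) and at BDF1 (1198 bp). In code 11 the narrowest members measured 1200, 1204 and 1205 bp. The 16 loci that were wide in code 8 only had a widest region of 723 to 1188 bp in code 11, with a median of 978.5 bp. The 52 that were wide in code 11 only measured 475 to 1199 bp in code 8, with a median of 1114.5 bp. The locus with the narrowest counterpart lay at ATP15, a subunit of the mitochondrial ATP synthase, and MDL2. It measured 1420 bp in code 11 at 0 min and 1382 bp at 180 min, and 475 and 1005 bp in code 8.

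The wide loci differed in how many gene starts they spanned. Of the 368 loci, 52 held no annotated start of a protein-coding gene, 137 held 1, 122 held 2, 51 held 3 and 6 held 4. Starts were not packed more densely in them: wide regions had 0.935 coding starts per kb in code 8 against 0.916 per kb in the other regions, and 0.935 against 0.932 per kb in code 11. What differed with width was the combination. A divergent pair of starts lay inside 36.6% of the wide regions of code 8 and 6.31% of the others, and a complete protein-coding gene inside 51.7% against 3.56%. In code 11 the shares were 36.8% against 6.19% for divergent pairs and 49.9% against 3.32% for complete genes. A longer interval holds more of any feature, so these shares describe the regions and show nothing particular to them beyond their length. Annotated genes covered 46.0% of the bases of wide regions in code 8 and 46.5% in code 11, against 28.6 and 29.6% in the other regions.

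The 12 widest loci show the kinds of gene arrangement involved. The widest lay on chromosome XV, 29759 to 33745 (sacCer3), over the start of HPF1, a cell wall mannoprotein gene. Its width went from 3857 bp at 0 min to 3423 bp at 180 min in code 8, and in code 11 from 3646 to 3485 bp. It was long but low: its tallest summit stood at 3.07 times background in code 8, less than the median of wide regions. The next, on chromosome IX, 52742 to 56261, spanned GUT2, the mitochondrial glycerol-3-phosphate dehydrogenase, with IMP21 and RRD1, and had 13 sub-peaks in each 0 min list. Widths were 3485 and 3027 bp in code 8, and 3481 and 3492 bp in code 11. Genes covered 87.3% of that locus.

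Some of these loci kept the same borders in every list. The locus on chromosome XII, 448173 to 451241, beside the ribosomal DNA array, held the start of RNH203, a ribonuclease H2 subunit, and measured 3069, 3055, 3069 and 3040 bp in code 8 at 0 and 180 min and code 11 at 0 and 180 min. Genes covered 6.97% of it. The locus of SEC23, a COPII coat subunit, with SMX3, DPM1 and GDB1 measured 2828, 2827, 2836 and 2812 bp in the same order. The locus of ESS1, a prolyl isomerase acting on RNA polymerase II, and TES1 measured 2680, 2688, 2680 and 2680 bp. No list stood apart at these loci.

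Others differed by more than 1000 bp between lists. At SSA4, a heat-inducible Hsp70 chaperone, and RTT105 the region measured 3217 bp in code 8 and 3031 bp in code 11 at 0 min, and 1527 bp in both codes at 180 min. At PDC1, the main pyruvate decarboxylase, code 11 had a single region of 3239 bp at 0 min and a widest region of 1222 bp at 180 min, while code 8 had 1655 and 1667 bp. At CYS3, the cystathionine gamma-lyase, and SWC3 the region measured 2671 bp in code 8 at 0 min and 1391 bp at 180 min, and 1326 bp at both times in code 11. The shorter regions were mostly pieces of the longer ones. At SSA4 the covered bases numbered 3217 at 0 min and 2843 at 180 min in code 8, in 1 and 2 regions, and 3031 and 2829 in code 11. The PDC1 locus had 3239 and 2329 covered bases in code 11.

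**Figure D1:**
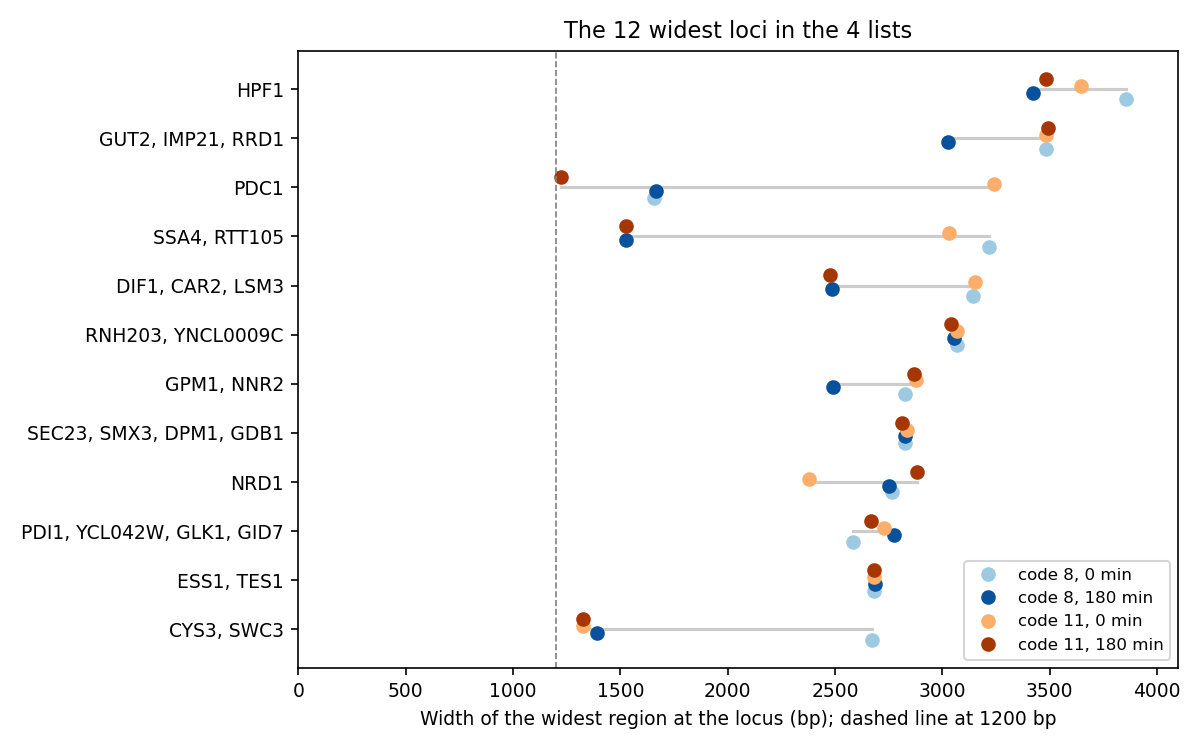
Width in bp of the widest region at each of the 12 widest loci (rows, named by the genes that start there) in the 4 lists (colours), with a dashed line at 1200 bp. The loci of RNH203, SEC23 and ESS1 have nearly equal widths in every list, and the locus of SSA4 is 3217 and 3031 bp at 0 min and 1527 bp in both codes at 180 min.

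Followed to 180 min, most wide regions stayed wide. In code 8, 274 of 317 still measured 1200 bp or more (86.4%, interval 82.2 to 90.0%), and in code 11, 290 of 353 did (82.2%, 77.8 to 86.0%). Over all regions the share at 1200 bp or more at 180 min was 9.47% in code 8 and 8.71% in code 11, which is low because most regions were narrow to begin with. None of the wide regions was without a partner at 180 min in either code. The median ratio of the 180 min to the 0 min width was 0.999 in code 8 (order-statistic 95% interval 0.996 to 1.00, n = 317) and 0.984 in code 11 (n = 353). The direction in code 11 turned, to 1.03, with widths scaled to the medians of the lists. It did not turn for regions wide at 180 min followed back to 0 min. There the median of the 0 min over the 180 min width was 1.00 (just above 1), so 0 min again had the larger width. Since the regions were chosen for their 0 min width, a fall is partly fixed by the choice.

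A minority changed by 20% or more of their width. In code 8, 40 regions (12.6%) narrowed and 12 (3.79%) widened by that much, where all regions of the list had 14.6% narrowed and 8.81% widened. In code 11, 49 (13.9%) narrowed and 8 (2.27%) widened, where all regions had 15.6 and 4.97%. Regions with no partner at 180 min count as narrowed. These were 166 of all 3599 regions in code 8 and 195 of 3699 in code 11, but no wide region. The narrowed shares of wide and of all regions are thus not alike in kind, and no difference is read from them. Counting the total width of all overlapping 180 min regions in place of the best partner left 4.10% narrowed in code 8 and 5.10% in code 11. Of the regions wide at 180 min in code 11, followed back, 6.43% were wider and 4.50% narrower at 0 min by 20% or more. A split into 2 or more regions was seen for 35 (11.0%) in code 8 and 37 (10.5%) in code 11, against 1.92 and 1.68% of all regions. A long region has more places at which it can part, so nothing is read from this excess. Sub-peaks inside the wide intervals went from 1484 to 1391 in code 8, a ratio of 0.937 (0.871 to 1.01), and from 1633 to 1527 in code 11, a ratio of 0.935. The corresponding ratios for the remaining regions were 0.909 and 0.902.

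**Figure D2:**
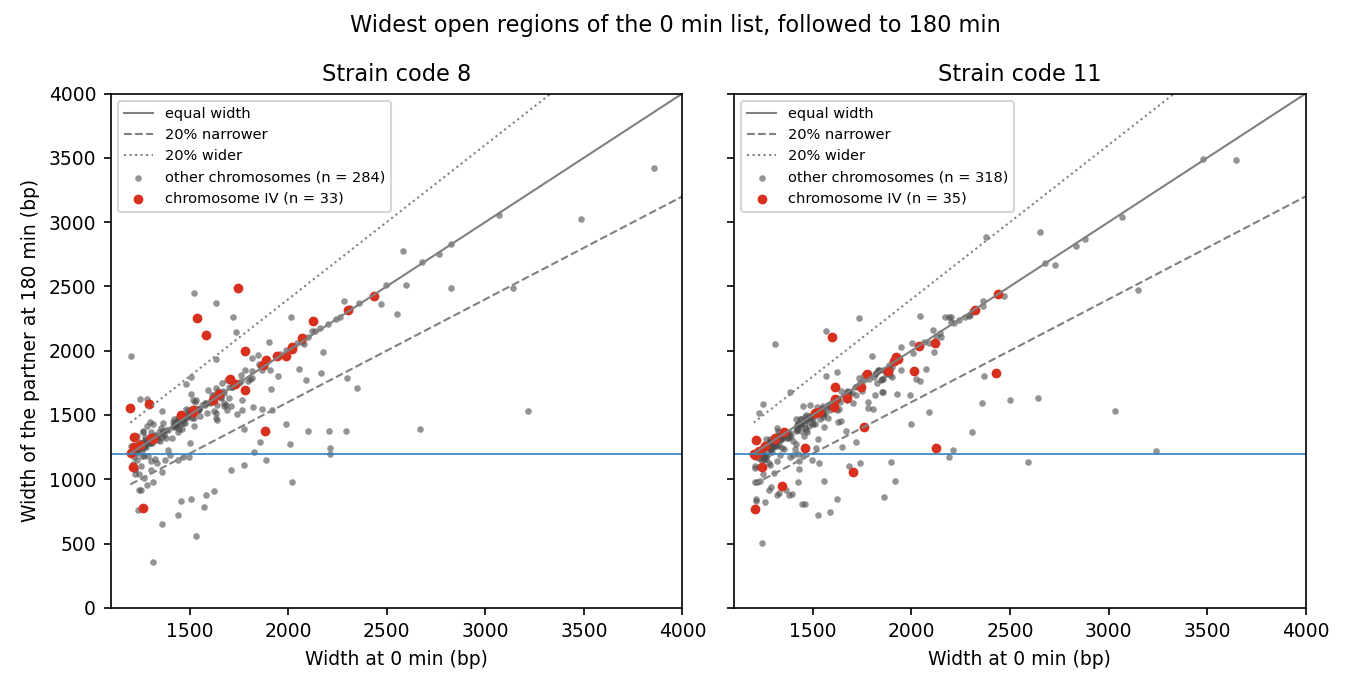
Width of each wide region at 0 min (x axis, bp) against the width of the overlapping region at 180 min (y axis, bp), for code 8 (left) and code 11 (right), with chromosome IV in red and lines of equal, 20% smaller and 20% larger width. Most points lie on the line of equal width, and of the rest more lie below the lower dashed line (40 and 49 regions) than above the dotted one (12 and 8).

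Widths measured in the other code do not rest on the list that chose the regions, although the choice was still made at 0 min. The 317 regions chosen in code 8 had a counterpart of 1200 bp or more in code 11 in 301 cases at 0 min (interval 91.9 to 97.1%) and in 279 at 180 min (88.0%, 83.9 to 91.4%). Of these, 32 were wide in code 11 at 0 min only and 10 at 180 min only. The 353 regions chosen in code 11 had one in code 8 in 301 cases at 0 min (85.3%) and in 284 at 180 min (80.5%, 75.9 to 84.5%), with 31 wide at 0 min only and 14 at 180 min only. More of these regions were therefore wide at 0 min only than at 180 min only. Regions chosen for 1200 bp or more at 180 min instead gave a smaller difference: of 310 from code 8, 21 were wide in code 11 at 0 min only and 12 at 180 min only, and of 311 from code 11, 20 and 15 were so in code 8. The whole lists moved the same way: the median region width went from 445 to 426 bp in code 8, and in code 11 from 441 to 423 bp. The genome-wide background pileup, a stand-in for depth, was 413.8 and 439.2 in code 8 and 601.7 and 512.2 in code 11, so it rose in one code and fell in the other. Its part in the widths was not tested.

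Of the 300 loci wide in both codes, 253 (84.3%) reached 1200 bp in all 4 lists, and in 131 the 4 widths lay within 5% of each other. Loci narrowed by 20% or more numbered 31 in code 8 and 32 in code 11, and 12 of them were narrowed in both, which is 38.7% of the first and 37.5% of the second. The matching shares over all regions were not computed, so none of these overlaps between codes is read as particular to wide loci. Besides SSA4 these 12 included ADH1, the main fermentative alcohol dehydrogenase, with 2349 and 1706 bp in code 8 and 2356 and 1591 bp in code 11. They also included ERO1, the thiol oxidase of the endoplasmic reticulum, with COX14, where the widths were 2295 and 1373 bp in code 8 and 2306 and 1364 bp in code 11. At DIF1, a regulator of ribonucleotide reductase localisation, with CAR2 and LSM3 the widths were 3142 and 2485 bp, and 3151 and 2475 bp. At PFK26, a 6-phosphofructo-2-kinase, and MOB1, a mitotic exit kinase partner, they were 1531 and 557 bp, and 1586 and 742 bp. In these cases both codes had the longer region at 0 min. At 180 min each of these loci held 2 regions in both codes, and covered bases differed less than widths. They numbered 2349 and 2151 in code 8 and 2356 and 2181 in code 11 at ADH1. At ERO1 they were 2295 and 2145, and 2306 and 1938. At DIF1 they were 3142 and 3054, and 3151 and 3023, and at PFK26 1531 and 969, and 1586 and 1204. The others of the 12 were at LSB5 and MXR2, YHL041W, SNR11 and CMC4, LYS9 and SNR49, SPO24, and the tRNA genes YNCP0001C and YNCG0039W.

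Other loci were among those with the lowest ratios in a single code. COQ2 and MVD1, genes of ubiquinone and isoprenoid synthesis, shared a region of 1313 bp at 0 min and 357 bp at 180 min in code 8, but of 1328 and 1263 bp in code 11. At OYE2, an NADPH oxidoreductase, the widths were 1358 and 651 bp in code 8, while code 11 was narrow at both times with 730 and 649 bp. The region at SRG1 and SER3, a serine synthesis gene repressed by transcription of SRG1 through its promoter, measured 1199 and 868 bp in code 8 and 1242 and 508 bp in code 11. Among the loci that lengthened, YPT1 and TUB2, the Rab GTPase and beta-tubulin genes, went from 1723 to 2262 bp in code 8, and in code 11 from 1732 to 2255 bp. PDR15, an ABC transporter of the drug response, went from 1585 to 2121 bp in code 8, and in code 11 from 1599 to 2109 bp. These were the only loci among the 300 that widened by 20% or more in both codes, of 11 in code 8 and 7 in code 11. Inside both loci the covered bases hardly differed between the times. At YPT1 and TUB2 they numbered 1723 and 1732 in code 8, and 1732 and 1720 in code 11. At PDR15 they numbered 1585 and 1582, and 1599 and 1582. The added width therefore lay beyond the borders of these loci.

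The stretches no longer covered at 180 min lay mostly in gene bodies. In code 8, 21.3 kb of the 514.4 kb in wide regions (4.14%) were outside any region at 180 min, and 69.8% of those bases lay in annotated genes, against 45.0% of the bases that stayed covered. In code 11 the loss was 28.7 kb (5.00%), of which 71.1% lay in genes, against 45.2%. Without the 5 loci that lost the most bases the shares were 71.1% in code 8 and 70.9% in code 11. The opposite direction gave the same kind of bases: of the stretches wide at 180 min and uncovered at 0 min, 16.9 kb in code 8 and 9.27 kb in code 11, genes held 73.9 and 63.0%. Bases of wide regions that differ between the lists in either direction were thus mainly genic. The other regions lost a larger share of their bases, 8.88% in code 8 and 9.66% in code 11, and 53.9 and 54.1% of those lay in genes, against 28.6 and 29.6% of all their bases.

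Signal was also lower there. Sub-peaks of wide regions in genes stood at a median of 2.21 times background in code 8 at 0 min (n = 742), and those between genes at 5.23 times (n = 742). In code 11 the medians were 2.29 (n = 811) and 5.16 (n = 822). From 0 to 180 min the number in genes went from 742 to 680 in code 8, a ratio of 0.916, and from 811 to 741 in code 11, a ratio of 0.914. Between genes it went from 742 to 711, a ratio of 0.958, and from 822 to 786, a ratio of 0.956. In the other regions the ratios were 0.819 and 0.823 in genes, and 0.947 and 0.937 between genes, so the count in genes was lower by more there than in wide regions. At summits present at both times, the median change of height relative to background was -0.026 on the log2 scale in code 8 (n = 1319 summits, SD 0.17) and 0.059 in code 11 (n = 1464, SD 0.14), less than the spread between summits.

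Glycolysis and fermentation genes, which carry glucose to ethanol, were the list with the largest share of starts in wide loci. Of 22 such genes, 10 started in one (45.5%, 24.4 to 67.8%), against 558 of 6002 protein-coding genes (9.30%). They were GLK1 (glucokinase), FBA1 (aldolase), TDH1 and TDH3 (glyceraldehyde-3-phosphate dehydrogenase), PGK1 (phosphoglycerate kinase), GPM1 (phosphoglycerate mutase), ENO1 and ENO2 (enolase), PDC1 and ADH1. The other 12, among them the pyruvate kinase gene CDC19 and both subunit genes of phosphofructokinase, started outside. None of the 20 hexose transporters and sensors, which bring the same sugar in, started in a wide locus, with an exact interval of up to 16.8%. A gene counts here only if its start lies inside, and a gene-free wide locus of 1204 bp in code 11 ended 33 bp short of HXT3. Paralogs such as the TDH and the ENO genes are similar in sequence, so fragments could be placed at the wrong copy and their values are uncertain.

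The lists of other gene groups give the range. Histone genes had 4 of 10 in wide loci (HHF1, HHT1, HTA1 and HTB1, the divergent pairs of histones H4 with H3 and H2A with H2B), snoRNA and snRNA genes 22 of 82 (26.8%), chaperones and heat shock genes 5 of 22 (FES1, HSP42, SIS1, SSA2 and SSA4), and tRNA genes 40 of 275 (14.5%). Ribosomal protein genes, although strongly transcribed, had 7 of 138 (5.07%), and genes within 25 kb of a chromosome end 9 of 325 (2.77%). The other lists ran from 2 of 9 phosphate genes (22.2%) and 4 of 20 general stress genes down to 2 of 29 cyclins and cell-cycle switches (6.90%). The galactose genes had 0 of 6. Genes of the MATa type and the pheromone response had 0 of 16 and MATalpha-specific genes 0 of 5, so these regions do not bear on the labelled mating type. Of 34 genes of centromere, kinetochore and condensation functions, MAD1 (spindle checkpoint) and CDC14 (mitotic exit phosphatase) started in a wide locus; ASK1, a kinetochore gene that the list does not hold, did too. Their loci measured 1795, 1764, 1798 and 1960 bp, and 1530, 1599, 1621 and 1535 bp, in the order of lists given above.

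**Figure D3:**
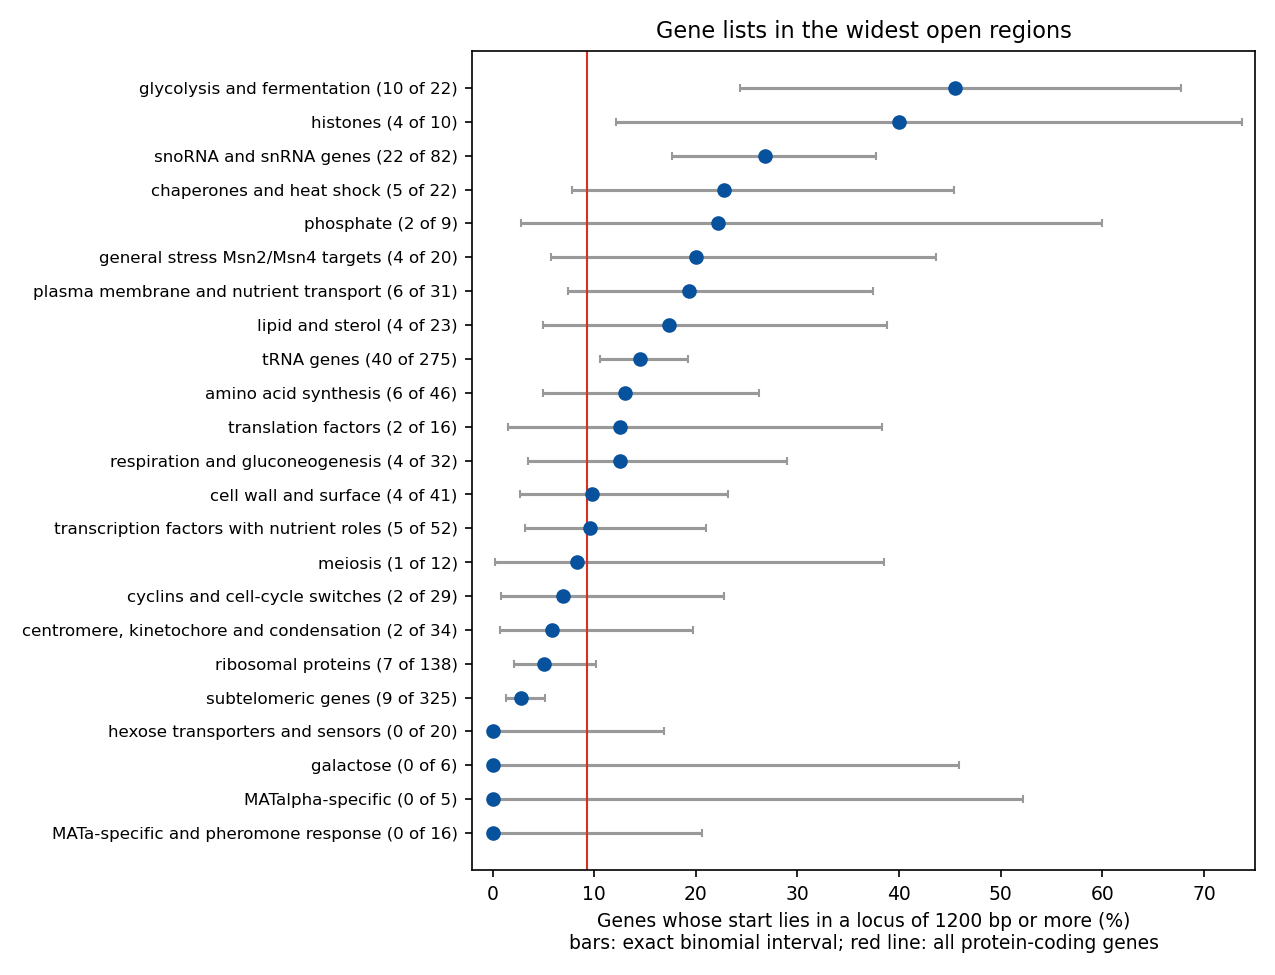
Percentage of the genes of each list whose annotated start lies in a locus of 1200 bp or more (x axis), with exact binomial intervals as bars and the share of all protein-coding genes (9.30%) as a red line. Glycolysis and fermentation (10 of 22) lies farthest right, and hexose transporters and sensors (0 of 20) at zero.

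The open share of a gene is the percentage of its annotated span, coding sequence with any intron, that lies inside called regions. In code 8 it was lower at 180 min by 10 percentage points or more in 8 of the 22 glycolysis and fermentation genes, where 4.22% of all protein-coding genes were. In code 11 it was lower by that much in 9 of 22, where 4.7% of all were. The 7 genes lower in both codes were ADH1, ENO1, ENO2, FBA1, PDC1, TDH2 and TDH3, where 105 of 6002 genes (1.75%) were. None of the 22 was higher by 10 points in either code, where 3.37% of all genes were in code 8 and 1.98% in code 11. Most genes had no open body to lose: among the 1827 genes with 10% or more of the body open at 0 min in either code, 13.8% were lower in code 8, 15.4% in code 11 and 5.75% in both, and 12 and 13 of the 22 were that open at 0 min.

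Gene by gene the loss differed in size. TDH3, the most abundant of the dehydrogenases, went from 95.7% of its body covered at 0 min to 34.3% at 180 min in code 8, and in code 11 from 87.4 to 33.9%. PDC1 went from 91.3 to 78.1% in code 8, and in code 11 from 100% to 46.2%. ENO2 went from 67.5 to 53.3% in code 8, and in code 11 from 88.5 to 48.3%. Both codes had the higher value at 0 min for each of these. FBA1 went from 26.0 to 5.19% in code 8, and in code 11 from 34.8 to 1.48%, and ENO1 from 30.7 to 18.2% and from 35.2 to 14.8%. ADH1 was lower in both codes too, from 92.5 to 73.5% and from 93.1 to 76.4%. GLK1 was covered over its full length in every list, and PGK1 went from 95.2 to 96.6% in code 8, and in code 11 from 95.8 to 99.5%, so neither was lower at 180 min.

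Genes in the wide loci share the 0 min lists that chose those loci, and the genes outside do not have that tie. TDH2, which starts in no wide locus, went from 35.7 to 0% in code 8, and in code 11 from 35.9 to 0%. TPI1, the triose phosphate isomerase gene and likewise outside, went from 28.0 to 25.6% in code 8, and in code 11 from 28.8 to 4.02%. PDC6 lay between 20.2 and 21.0% in every list, and the remaining 9 genes outside were at 0 in all 4.

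**Figure D4:**
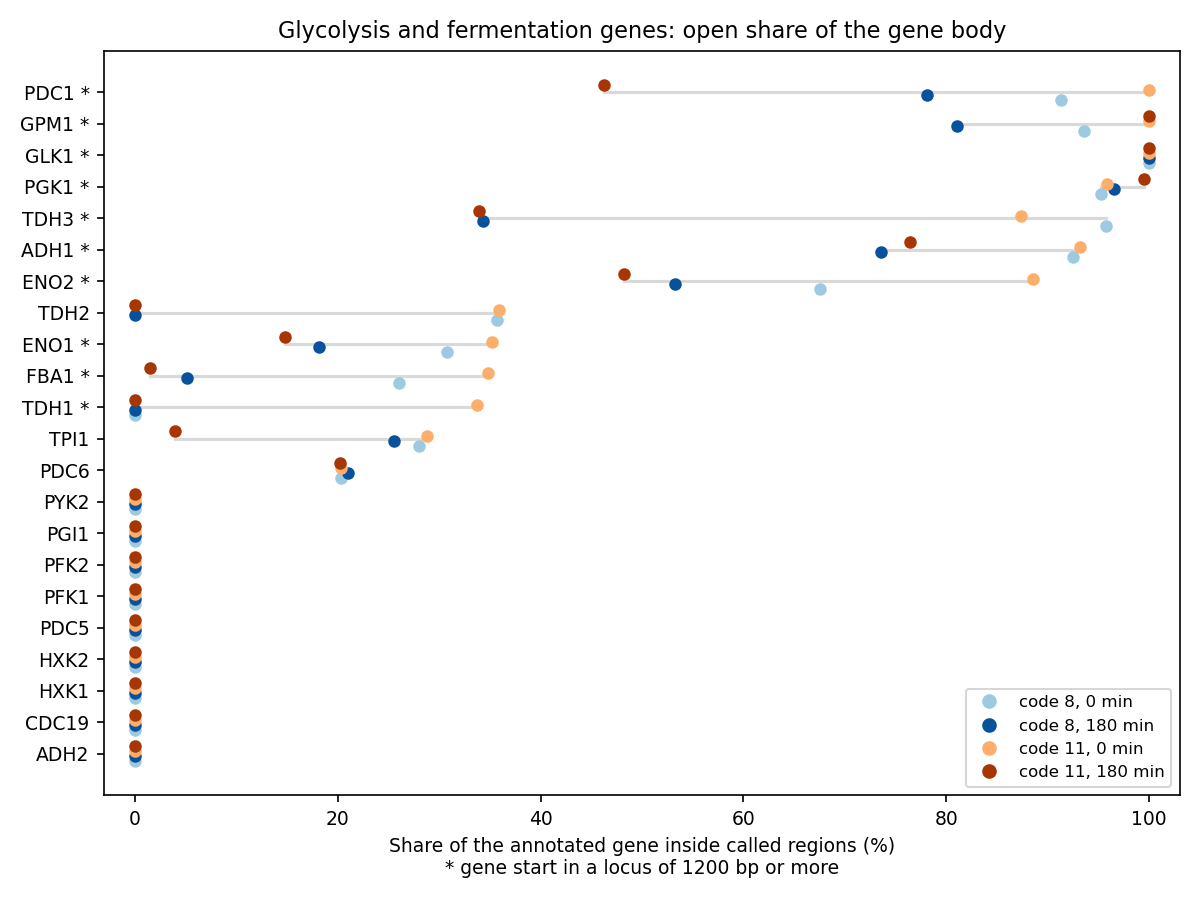
Open share of the gene body (x axis, % of the annotated gene inside called regions) for the 22 glycolysis and fermentation genes in the 4 lists (colours); an asterisk marks genes that start in a wide locus. TDH3 and ENO2 have the 0 min points of both codes to the right of both 180 min points, GLK1 is at 100% in every list, and 9 genes are at 0 in every list.

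Of the 10 histone genes, the open share was lower by 10 points or more in 3 in code 8 and 2 in code 11, with HHF1 lower in both. Of the 22 chaperone and heat shock genes it was lower in 4 in code 8 and 7 in code 11, with BTN2, HSP30 and HSP78 lower in both. The shares over all protein-coding genes were 4.22, 4.7 and 1.75% in code 8, code 11 and both. However, 9 of these histone genes and 17 of these chaperone genes had 10% or more of the body open at 0 min in each code. Among the 1827 genes that open at 0 min in either code, the shares were higher, at 13.8, 15.4 and 5.75%. The open share of HHF1 went from 77.2 to 27.9% in code 8, and in code 11 from 93.6 to 18.6%. The region it shares with HHT1 measured 1254 and 915 bp in code 8 and 1305 and 1050 bp in code 11, and its sub-peaks numbered 4 and 1, and 3 and 1. HTA1 was covered in full in each list, and its region with HTB1 measured 2019, 2012, 2012 and 1838 bp. HHF1 and HHF2 encode the same protein, and where their sequences match fragments could be placed at the wrong copy, so their values are uncertain. HSP42, a small heat shock protein, and SIS1, an Hsp40 cochaperone, were covered in full in every list. SSA4 was covered in full at 0 min and to 91.6% in code 8 and 91.8% in code 11 at 180 min. Its region was nonetheless shorter by more than 1000 bp, and a short gap inside the gene divided it in both codes. HSP30, a plasma membrane stress protein that starts outside the wide loci, went from 97.7 to 0% in code 8, and in code 11 from 99.3 to 40.6%.

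**Figure D5:**
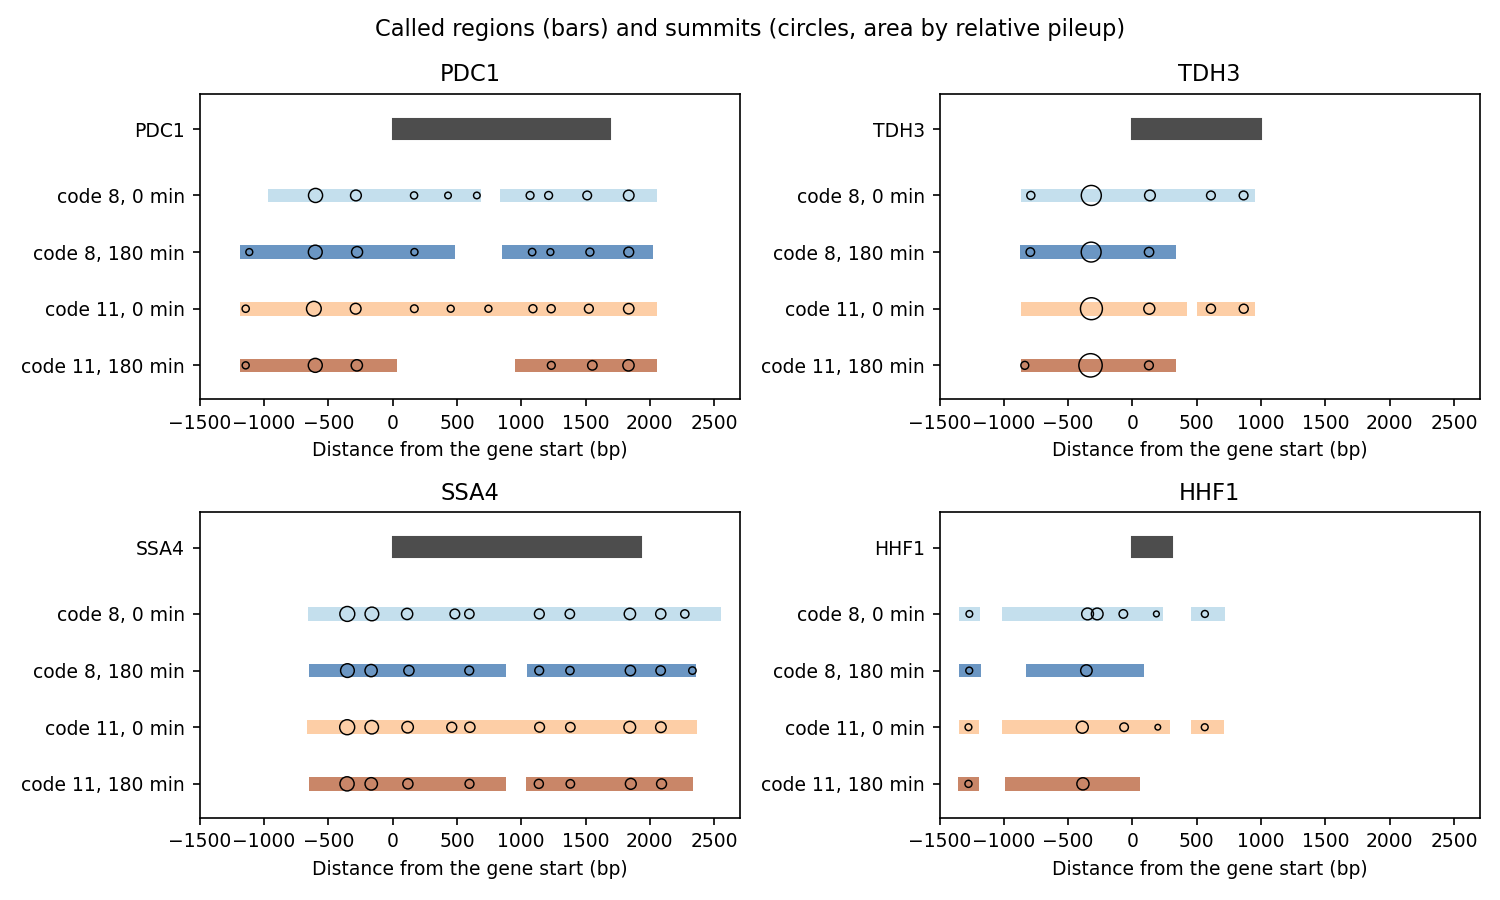
Called regions (bars) and summits (circles, area proportional to pileup relative to background) around PDC1, TDH3, SSA4 and HHF1, by distance from the annotated gene start in bp with the gene drawn in grey to the right. The largest circles lie upstream of the start in every list, the bars reach less far into TDH3 and HHF1 at 180 min, and a gap lies inside SSA4 in both codes at 180 min and inside PDC1 in 3 of the 4 lists.

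In the maps, the tall upstream summits were found at both times and the summits called at 1 time only were mostly low ones inside the genes. Upstream of TDH3, at -320 bp from its start in code 8 and -319 bp in code 11 at 0 min, the main summit stood at 15.4 times background and later at 15.2 in code 8, and at 18.5 and 21.0 in code 11. Inside the gene, a summit at 136 bp in code 8 stood at 4.42 times background at 0 min, and its counterpart stood at 3.35 at 180 min. The same summit had 4.66 and 2.98 in code 11. A pair of further summits at 610 and 864 bp, with 2.94 and 2.95 times background in code 8 and 3.14 and 3.11 in code 11, was called at 0 min only. The upstream summit of TDH3 thus differed little between the times in code 8 and was higher at 180 min in code 11, while each summit within the gene was lower or no longer called.

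PDC1 and SSA4 lost summits in the same part of the map. In PDC1, summits at 431 and 655 bp in code 8 stood at 1.67 times background each at 0 min, and neither was called at 180 min. Their counterparts in code 11, at 1.85 and 1.88, were not called at 180 min either. The tallest summit of the PDC1 locus went from 7.63 to 7.37 times background in code 8, and in code 11 from 8.32 to 7.51. In SSA4 a summit at 484 bp in code 8, at 3.60 times background, and one at 460 bp in code 11, at 3.76, were called at 0 min only. The tallest summit at SSA4 had 8.53 and later 7.20 in code 8, and 8.63 and 7.72 in code 11, so the whole locus was lower at 180 min.

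At HHF1 the summits nearest the start changed. One at -71 bp stood at 2.82 times background in code 8 at 0 min, with a counterpart at 2.83 in code 11, and was not called at 180 min in either code. The tallest summit between HHF1 and HHT1 stood at 5.34 and later 5.08 in code 8, and at 5.49 and 5.68 in code 11.

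A separate kind of wide region held no gene at all. In 28 loci no annotated gene was touched, and the median distance between the flanking genes was 2030 bp. Of these, 19 lay between divergent genes, 8 between tandem genes and 1 at a chromosome end, and 22 were wide in both codes. Of all protein-coding genes, 44 faced one of them with their start. They included 6 of the 52 transcription factors listed for nutrient roles (11.5%), which were HAP4 (respiratory genes), MSN4 (general stress), SOK2 and TEC1 (filamentous growth), TYE7 (glycolytic genes) and CUP9 (peptide import), against 44 of 6002 protein-coding genes (0.733%). They also included HO, the mating-type switching endonuclease, PDR5, a drug efflux pump, and FET4, an iron transporter.

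Of the 28 gene-free loci, none narrowed by 20% or more in code 8 and 1 did in code 11, where 14.6 and 15.6% of all regions did. The shares of all regions include those with no partner at 180 min, counted as narrowed. There were 2 that widened in code 8 and 1 in code 11, where 8.81 and 4.97% of all regions did. Each of these was wide at 0 min in the other code only. A locus is scored by its widest region, and a region of the list by its partner with the largest overlap. The shares are thus not alike in kind, and no difference is read from them. Between KTI12 and HAP4 the region measured 1908 and 1846 bp in code 8 and 1831 and 1843 bp in code 11. Upstream of MSN4 it measured 1421, 1421, 1419 and 1421 bp in the order of lists given above. Between ATG40 and PDR5 it measured 1246, 1251, 1245 and 1246 bp. The single exception on the low side lay between UBC4 and TEC1, where code 11 had 1896 bp at 0 min and 1137 bp at 180 min and code 8 had 1138 and 1128 bp. Upstream of HO, on chromosome IV, code 8 had 594 bp at 0 min and 1747 bp at 180 min, and code 11 had 1613 and 1625 bp. Upstream of NCE102, code 8 had 1146 and 1482 bp and code 11 had 1491 and 1474 bp. Upstream of HXK1, a hexokinase gene, code 11 had 868 bp at 0 min and 1706 bp at 180 min, and code 8 had 1701 and 1714 bp. These loci were singled out after their values were seen.

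Chromosome IV carries the centromere that lox sites flank in CEN4*. It had 33 wide regions in code 8 at 0 min and 42 at 180 min, a ratio of 1.27, while the other 15 chromosomes together went from 284 to 268, a ratio of 0.944, with single chromosomes between 0.778 and 1.19. In code 11 chromosome IV went from 35 to 30, a ratio of 0.857, and the others from 318 to 281, a ratio of 0.884, with single chromosomes between 0.667 and 1.13. The median width ratio of the wide regions on chromosome IV was 1.01 in code 8 (n = 33) against 0.997 elsewhere (n = 284), and 0.996 against 0.983 in code 11. Summit heights moved with it: in code 8, matched summits of wide regions on chromosome IV were higher at 180 min by a median of 0.25 on the log2 scale (n = 142, of which 140 higher), and those elsewhere by -0.041 (n = 1177). In code 11 the medians were 0.067 (n = 148) and 0.059 (n = 1316). The rise on chromosome IV in code 8 was not limited to wide regions, since the other regions of that chromosome had a median of 0.20 (n = 694, of which 660 higher), against -0.048 (n = 4025) in other regions elsewhere. The part of this signal in the widths was not tested.

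Within 50 kb of the centromere there were 2 wide loci. At GPD1, the glycerol-3-phosphate dehydrogenase of the osmotic response, chromosome IV, 410793 to 412919, the region measured 2127 and 2228 bp in code 8 and 2127 and 1242 bp in code 11. At ATG31, an autophagy gene, and the tRNA gene YNCD0007C, chromosome IV, 488140 to 489402, it measured 1263 and 780 bp in code 8 and 975 and 818 bp in code 11. The first was longer at 180 min in code 8 and shorter in code 11, and the second was shorter in both. Inside the GPD1 locus, covered bases numbered 2127 at both times in code 8. In code 11 they numbered 2127 and 1972, in 1 and 2 regions. At ATG31 they numbered 1263 and 1060 in code 8, and 1167 and 1098 in code 11.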

How the data were processed

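Populations of haploid MATa yeast were profiled by ATAC-seq in 4 groups of 2 experiments each. Per the submitters' processing notes, the build was sacCer3 and the tools included MACS2 2.2.4 and Bowtie2 2.3.4.3, besides HOMER, Picard and SAMtools. A Tn5 shift of the reads and any pooling of experiments are not stated there. The authors deposited 4 peak lists, 1 per strain code and time, with a score per sub-peak that equals 10 times its -log10 p, a fold enrichment (a linear ratio over local background), and the p-value and q-value as -log10. These 4 columns are the authors' values and were used to describe peaks within a list. Read depth is not in the lists.

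Entries with identical coordinates were joined to 1 region with its summits. Each wide region was followed to the 180 min region of the same code with the largest overlap (at least 1 bp). Summit pileup and background were solved from fold and -log10 p, whose whole-number pileups came out within 0.05 for 99.1 to 99.8% of sub-peaks, and divided by the genome-wide background of the list. Genes are from the RefSeq gene table (R64), and a gene's start is its annotated start, usually that of the coding sequence. Software was Python 3.11.15, pandas 2.3.3, numpy 2.4.6, scipy 1.17.1 and matplotlib 3.10.9, and the scripts were tested on simulated data.

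The members and the gene lists were chosen with earlier results of these data known. Named loci are the 12 widest, the 5 with most sub-peaks, the 5 with the lowest and highest width ratio per code, those wide in 1 code with the narrowest counterpart, those at the threshold, those within 50 kb of CEN4 and up to 4 of each list. The open share of gene bodies, the gene-free loci, the mapped genes and all widths across codes at or chosen at 180 min were added after values were seen. Exact intervals are Clopper-Pearson at 95%.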

Additional observations from a re-analysis of the deposited data

Results flagged for a closer look

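At 3 loci wide in both codes the widest region went opposite ways in the 2 codes between 0 and 180 min. The difference between the codes was not tested, since each code and time has 1 list. At SED1, a cell wall glycoprotein gene on chromosome IV, the 180 min width was 1.42 times the 0 min width in code 8 (1746 and 2484 bp) and 0.752 times in code 11 (2427 and 1825 bp). At EMI2 and GRH1, also on chromosome IV, it was 1.47 times in code 8 (1539 and 2255 bp) and 0.799 times in code 11 (1757 and 1403 bp). At ASK1, a kinetochore gene, and SFK1 on chromosome XI it was 1.45 times in code 8 (1636 and 2369 bp) and 0.758 times in code 11 (1648 and 1249 bp). The region of 2369 bp reached beyond this locus. Inside the locus, both codes had fewer covered bases at 180 min. Code 8 had 1278 against 1636 at 0 min, and code 11 had 1249 against 1648. At ASK1 and SFK1 only the region width, not the covered bases of the locus, therefore went opposite ways.

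The number of wide regions on chromosome IV at 180 min was 1.27 times that at 0 min in code 8 (33 and 42 regions) and 0.857 times in code 11 (35 and 30 regions). This difference was not tested either.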

How the results depend on the processing

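Of 144 values computed under alternatives, 123 stayed within the limits set for the main values and 19 moved beyond them. The other 2, both of the code 11 median width ratio, were marked as reversed. For regions followed back from 180 min the marks compare 0 min over 180 min with 180 min over 0 min, which are unlike quantities. Only the ratio from scaled widths changed direction. Taking the regions wide at 180 min back to 0 min in code 11 gave 93.6% still wide, 4.50% narrowed, 6.43% widened, 3.86% split, a median width ratio of 1.00 and a sub-peak ratio of 1.01, so the median ratio turned from below to above 1. Scaling the 180 min widths to the median of the lists raised the 180 min over 0 min ratio to 1.04 in code 8. In code 11 it turned the ratio from below to above 1, to 1.03, and 87.5% stayed wide. With the total width of all partners, 4.10% had narrowed in code 8 and 5.10% in code 11, where 86.1% stayed wide. A 180 min threshold of equal rank kept 87.8% wide in code 11. With 1500 bp as threshold 15.9% split in code 8 and 14.8% in code 11, and 82.3% of the code 8 regions were wide in code 11 at 180 min. With 1000 bp 86.4% stayed wide in code 11, and 89.9% of its regions at 0 min and 87.0% at 180 min were wide in code 8. Without chromosome IV the median pileup change in code 8 was -0.041, and at -log10 q of 50 or more it was 0.077 in code 11. Beyond the construction of each alternative the cause was not tested. No paired analysis was possible because the lists carry no replicate number, and for the same reason no replicate could be left out. Depth is not in the lists.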

Other observations

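Some wide regions at genes of other functions were among the steadiest. At HSP42 the region measured 2438, 2423, 2438 and 2438 bp in code 8 at 0 and 180 min and code 11 at 0 and 180 min, and at PHO4, the phosphate regulator, with QCR6 it measured 2262, 2260, 2272 and 2265 bp. At ATG41 and RPL36B the widths were 2243, 2247, 2243 and 2242 bp. At ERG25, a sterol methyl oxidase, and SNR48 they were 1467, 1460, 1460 and 1482 bp, with 2 sub-peaks in each list. In contrast, at WHI5, the G1 repressor, with LPX1 the widths were 1636, 1934, 1926 and 1661 bp, so the longer region was at 180 min in code 8 and at 0 min in code 11. At PCL1, a G1 cyclin of Pho85, they were 1244, 914, 914 and 833 bp. At LEU2 with the tRNA gene SUP53 code 8 had 1194 and 940 bp and code 11 2306 and 2310 bp, so here the codes differed more than the times.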
